A study of Caenorhabditis elegans with 8 samples.

Results

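The proteases described here are 10 cathepsins of Caenorhabditis elegans: the aspartic cathepsins asp-1 (Y39B6A.20), asp-2 (T18H9.2), asp-3 (H22K11.1), asp-4 (R12H7.2), asp-5 (F21F8.3) and asp-6 (F21F8.7), and the cysteine cathepsins cpr-1 (C52E4.1), cpr-5 (W07B8.5), cpr-6 (C25B8.3) and cpl-1 (T03E6.7). They were taken by name from a list, with no threshold on a measured value, and they are 10 of the 20505 coding sequences (CDS) in the deposited table. All 10 passed the filter on low values in every comparison. The values are ribosome occupancy, that is, reads of ribosome-protected fragments scaled to CDS length and library size (RPKM). As a measure per length, RPKM lets levels of different genes be set side by side. The order of some of the 10 nevertheless changed with the way a library was prepared.

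All worms were of the wild-type strain N2, carried no transgene or treatment, were hatched overnight and grown on NA22 bacteria on peptone-rich NGM plates, and were washed in M9 before lysis. The 4 young adult libraries crossed monosome isolation (sucrose gradient or MicroSpin S-400 HR gel filtration column) with library preparation (the in-house protocol or the ARTseq kit), with 1 library for each combination. The 4 L4 larval libraries, numbered 5 to 8, tested gel excision of 25-30, 28-30, 28-35 or 26-34 nucleotides; no label ties a column of the table to a window, and the labels do not say how their monosomes were isolated. The titles of the young adult libraries carry 1 specimen number and nothing states that any libraries came from separate cultures, so p-values measure a spread that may be technical.

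Cathepsins are proteases that work best in acid. They are made as inactive precursors, enter the secretory pathway and are activated in lysosomes or released into the gut lumen. Aspartic cathepsins, related to mammalian cathepsin D, use a pair of aspartates to cut proteins, and cysteine cathepsins, related to cathepsins B and L, use a cysteine. In worms, several are made in intestinal cells, where they digest bacterial food and turn over the animal's own proteins. Whole worms were lysed here, so the tissue in which a gene was translated was not measured, occupancy does not separate mRNA abundance from translation of each mRNA, and fewer cells of a type and less RNA per cell cannot be told apart.

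L4 library 8 stood apart from its group. Across all CDS its log2 values correlated with the young adult libraries at r = 0.963 to 0.975 and with L4 libraries 5 to 7 at r = 0.774 to 0.785. Its summed occupancy over 13 germ line markers was 3416 RPKM, beside 3528 to 4119.8 RPKM in young adults and 1234 to 1366 RPKM in the other L4 libraries. For 10 epidermis markers the sum was 2633 RPKM, beside 2534 to 3286 RPKM and 9641 to 10571 RPKM. Its sums lay between the groups for 10 body wall muscle markers, at 7061 RPKM beside 4285 to 5390 RPKM in young adults and 12267 to 16132 RPKM in the other L4 libraries. The same held for 10 neuron markers, at 318 RPKM beside 218 to 275 RPKM and 418 to 453 RPKM. Counts of stage calls are therefore given with and without the library labelled L4 library 8. Stage differences and p-values of single genes are without library 8 unless the text says that it was kept. That choice was made with earlier results of these data known, and it favours separation of the stages. Over all CDS, 5264 of 13592 were called with all 8 libraries and 9352 of 13494 without library 8. Every intestine marker had reads in these libraries, and the 16 summed to 2204 to 2839 RPKM in young adults, 2545 to 3692 RPKM in L4 libraries 5 to 7 and 2145 RPKM in library 8. Libraries held 3684924 to 38132794 reads.

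The 10 cathepsins together took 1.00% to 1.45% of all reads in the young adult libraries, 1.33% to 1.49% in L4 libraries 5 to 7 and 1.16% in L4 library 8. Counting error was small beside these differences: for L4 library 8, the shallowest, the 95% Wilson interval was 1.15% to 1.17%. The fewest reads behind any member were the 1048 on cpr-1 in L4 library 7, where the occupancy of 206 RPKM had a 95% exact Poisson interval of 194 to 219 RPKM. The most were 112301, on asp-1 in the in-house gradient library. Intervals cover counting error only, since reads were amplified by PCR without molecular identifiers. The 6 aspartic cathepsins made up 59.2% to 62.5% of the summed RPKM of all 10 in young adults and 65.3% to 68.3% in the 4 L4 libraries, with library 8 at 65.6%. The stages did not overlap in that share.

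**Figure D1:**
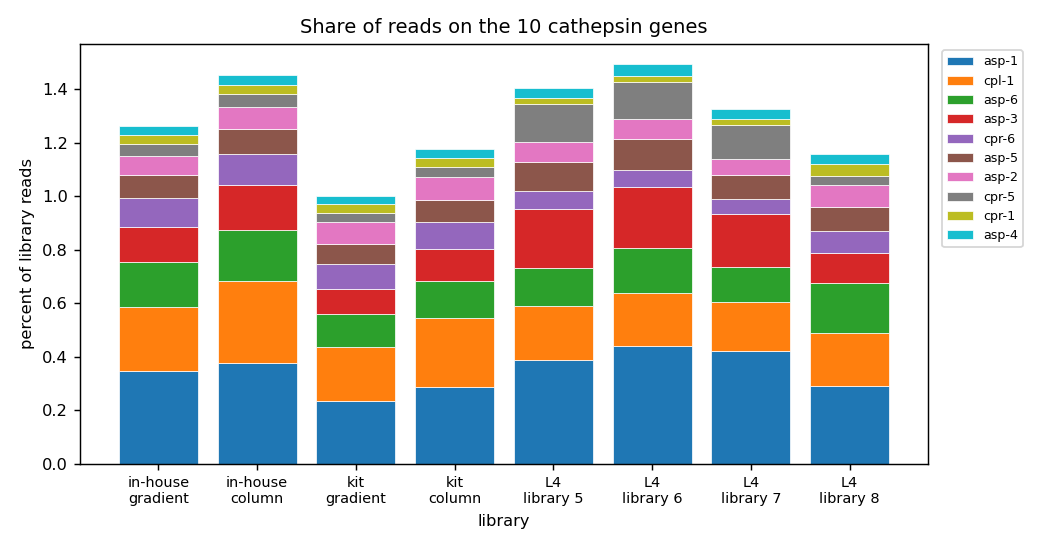
Share of each library's reads (y axis, percent) on the 10 cathepsin genes, 1 stacked bar per library (x axis) and 1 colour per gene. The bars reach 1.00% to 1.45% in young adults and 1.16% to 1.49% in L4 libraries, and the cpr-5 segment is wide only in L4 libraries 5 to 7.

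Among the aspartic cathepsins, asp-1, an intestinal cathepsin D-like protease, had the highest occupancy. In young adults it stood at 2835 RPKM in the in-house gradient library, 3095 in the in-house column library, 1927 in the kit gradient library and 2339 in the kit column library. L4 libraries 5 to 8 gave 3164, 3610.0, 3467 and 2393 RPKM. L4 libraries 5 to 7 all lay above the young adults, and library 8 lay inside the young adult range. By rank among all CDS, asp-1 was 69th to 122nd in young adults and 27th to 40th in L4 libraries 5 to 7.

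The aspartic protease asp-3 is known to act with asp-4 in necrotic death of neurons. Across the young adult libraries, each made by a different method, its levels varied most in relative terms, with a coefficient of variation of 25.8%. In the same order of young adult libraries it stood at 1086, 1393, 742 and 974.6 RPKM, and in L4 libraries 5 to 8 at 1772, 1876, 1620.0 and 924 RPKM. Every one of L4 libraries 5 to 7 exceeded every young adult library, while library 8 fell among the young adults. The related lysosomal enzyme asp-4 had the lowest occupancy of the 10 in young adults, with 242, 283, 217 and 255 RPKM, beside 283, 325, 285 and 259 RPKM in L4 libraries 5 to 8. For asp-4 the stages met at 283 RPKM.

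The aspartic proteases asp-5 and asp-6 are neighbours in the genome, with 1 protein-coding gene, asp-12, between them. Occupancy of asp-5 was 702, 752, 619 and 662 RPKM in the young adult libraries and 892, 959, 755 and 739.9 RPKM in L4 libraries 5 to 8. Occupancy of asp-6 was 1391, 1563, 1033 and 1163 RPKM in young adults and 1195, 1381, 1073 and 1575 RPKM in L4 libraries. The L4 libraries 5 to 7 lay above the young adults for asp-5, by a narrow margin in library 7, and mixed with them for asp-6. The ratio of asp-6 to asp-5 was 1.67 to 2.08 in young adults, 1.34 to 1.44 in L4 libraries 5 to 7 and 2.13 in library 8. The sources do not say how reads that fit more than 1 aspartic protease were counted. The last aspartic member, asp-2, gave 380.5, 441, 432 and 458 RPKM in young adults and 403, 399.9, 305 and 443 RPKM in L4 libraries 5 to 8, and the stages overlapped.

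Among the cysteine cathepsins, cpl-1 was the most occupied; it encodes cathepsin L, which worm embryos need to process yolk. It stood at 2309, 2948, 1936 and 2481 RPKM in young adults and at 1961, 1911, 1753 and 1876 RPKM in L4 libraries 5 to 8. The kit gradient library was inside the L4 range and the other young adult libraries were above it. For cpl-1 alone among the 10, L4 library 8 fell inside the range of L4 libraries 5 to 7.

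The cathepsin B-like proteases split by stage in opposite ways. In young adults cpr-5 stood at 423, 448, 329.3 and 334 RPKM, and in L4 libraries 5 to 7 at 1333, 1295 and 1208 RPKM, with 309 RPKM in library 8. Its relative cpr-6 stood at 911, 999, 804 and 875 RPKM in young adults and at 590.1, 537, 478 and 682 RPKM in L4 libraries 5 to 8. The ratio of cpr-5 to cpr-6 was thus 0.382 to 0.464 in young adults, 2.26 to 2.53 in L4 libraries 5 to 7 and 0.454 in library 8. In L4 libraries 5 to 7 cpr-5 was the more occupied gene, and in the other 5 libraries cpr-6 was. The gut cysteine protease gene cpr-1 gave 345, 320.1, 341 and 336 RPKM in young adults. Across these libraries of different methods it was the tightest of the 10, with a coefficient of variation of 3.23%. L4 libraries 5 to 7 gave 211, 223 and 206 RPKM, all below the young adults, and library 8 gave 454 RPKM, above every other library.

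**Figure D2:**
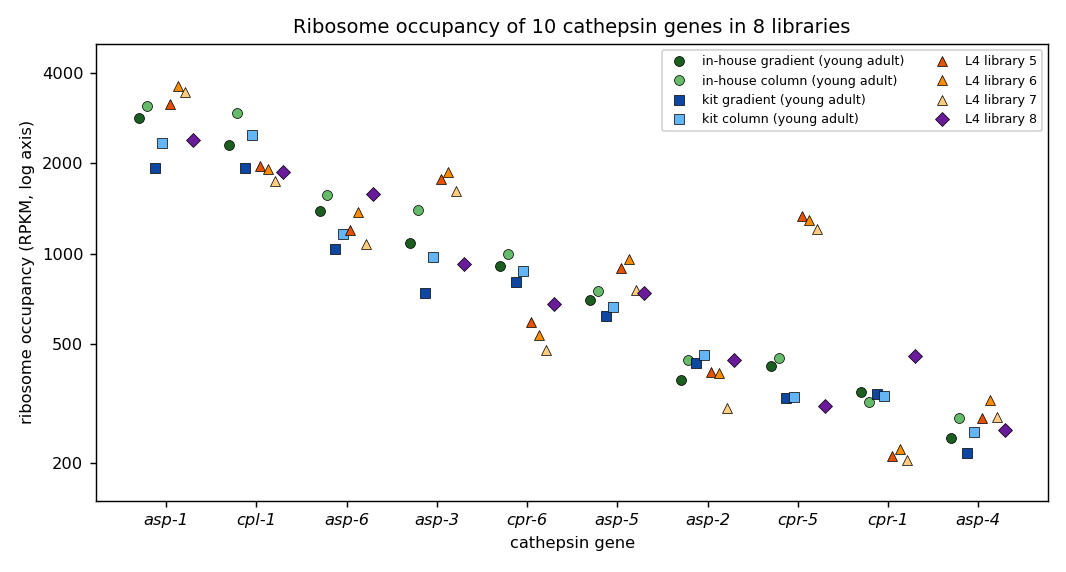
Ribosome occupancy (y axis, RPKM on a log scale) of the 10 cathepsin genes (x axis, ordered by the young adult mean), with 1 point per library. For cpr-5 the triangles of L4 libraries 5 to 7 sit at 1208 to 1333 RPKM, above every other library, and for cpr-1 they sit at 206 to 223 RPKM, below every other library.

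Ordered by young adult mean (SD, n = 4), the levels ran from asp-1 at 2549 ± 519.9 RPKM through cpl-1 at 2419 ± 419.96 RPKM, asp-6 at 1287 ± 236 RPKM and asp-3 at 1049 ± 271 RPKM to cpr-6 at 897 ± 81.4 RPKM. Below these came asp-5 at 684 ± 56.8 RPKM, asp-2 at 428 ± 33.4 RPKM, cpr-5 at 383 ± 60.8 RPKM, cpr-1 at 335 ± 10.8 RPKM and asp-4 at 249 ± 27.7 RPKM. Each SD is over libraries made by different methods, not over replicates. The ranges over libraries overlapped for the neighbours asp-1 and cpl-1, asp-6 and asp-3, asp-3 and cpr-6, asp-2 and cpr-5, and cpr-5 and cpr-1. Within single young adult libraries asp-6 nevertheless exceeded asp-3 in 4 of 4 and asp-3 exceeded cpr-6 in 3 of 4. The other 3 of these pairs were split at 2 of 4, and each split followed library preparation. In both in-house libraries asp-1 exceeded cpl-1, and cpr-5 exceeded asp-2 and cpr-1. In both kit libraries each of these orders was reversed. In L4 libraries 5 to 7 (n = 3) the order was asp-1 at 3413 ± 228 RPKM, cpl-1 at 1875 ± 108 RPKM, asp-3 at 1756 ± 129 RPKM, cpr-5 at 1279 ± 64.1 RPKM and asp-6 at 1216 ± 155 RPKM. The lower members were asp-5 at 869 ± 104 RPKM, cpr-6 at 535 ± 56.0 RPKM, asp-2 at 369.6 ± 55.6 RPKM, asp-4 at 298 ± 23.6 RPKM and cpr-1 at 213 ± 8.90 RPKM. Here the overlapping neighbours were cpl-1 and asp-3, cpr-5 and asp-6, and asp-2 and asp-4; within single libraries the first exceeded the second in 3 of 3, 2 of 3 and 3 of 3. From young adults to L4 libraries 5 to 7, cpr-5 moved from the eighth place to the fourth and cpr-6 from the fifth to the seventh.

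The comparison of stages was tested with limma on log2(RPKM + 1), with p-values adjusted by the Benjamini-Hochberg method over all CDS tested and called below 0.05. Stage differs here with the experiment, so stage and experiment cannot be told apart. Without L4 library 8, 2 cathepsins were called higher in young adults, cpr-1 and cpr-6, and 4 were called lower, asp-1, asp-3, asp-5 and cpr-5. Of the 13494 CDS tested, 22.7% were called higher and 46.6% lower. The groups did not overlap for the same 6 of 10 cathepsins, beside 67.8% of all CDS. The median log2 difference was -0.09 over the 10 and -0.34 over all CDS tested.

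The largest difference among the 10 was in cpr-5, which was 3.33-fold higher in L4 libraries 5 to 7 than in young adults. Its log2 difference, young adult minus L4, was -1.75 (SE 0.15, limma adjusted p = 2.99e-06). For asp-3 the L4 mean was 1.67-fold the young adult mean (log2 difference -0.78, SE 0.20, limma adjusted p = 0.00572). Smaller differences in the same direction were found for asp-1 (-0.44, SE 0.18, limma adjusted p = 0.0476) and for asp-5 (-0.34, SE 0.14, limma adjusted p = 0.0475), and the sign for asp-5 turned when each library was centred on its median. The call for asp-1 was lost without either kit library and without any 1 of L4 libraries 5 to 7 (adjusted p of 0.0749 to 0.143), and that for asp-5 without the in-house gradient library, either kit library, L4 library 5 or L4 library 6 (0.0684 to 0.187). The call for asp-3 held without any 1 library and was lost under median centring (-0.37, limma adjusted p = 0.153).

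In the other direction, cpr-6 was 1.68-fold higher in young adults (log2 difference 0.75, SE 0.14, limma adjusted p = 0.000706) and cpr-1 was 1.57-fold higher (0.65, SE 0.11, limma adjusted p = 0.000519). The members not called were cpl-1 (0.35, SE 0.16, limma adjusted p = 0.0747), asp-2 (0.22, SE 0.14, limma adjusted p = 0.199), asp-4 (-0.26, SE 0.13, limma adjusted p = 0.111, positive under median centring) and asp-6 (0.07, SE 0.17, limma adjusted p = 0.725). Over the limma and voom alternatives, the adjusted p of asp-4 fell as low as 0.0378. The calls for cpr-1, cpr-5 and cpr-6 held under every alternative run without library 8. Centring each library on its median left 4 cathepsins higher (asp-2, cpr-1, cpr-6 and cpl-1) and 1 lower (cpr-5), with all CDS at 4937 higher and 4171 lower in place of 3059 and 6293. Quantile normalization gave 3 cathepsins higher and 3 lower, with all CDS at 4788 higher and 4138 lower.

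With all 8 libraries kept as labelled, 1 cathepsin was called, cpr-6, higher in young adults by 0.66 on the log2 scale (SE 0.15, limma adjusted p = 0.0196). None was called lower by limma, and 1 was at an unadjusted p under 0.05, while voom on recovered reads called 1 lower, cpr-5 (adjusted p = 0.0348). Of 13592 CDS tested, 11.1% were called higher and 27.6% lower, the groups did not overlap for 29.7%, and cpr-6 was the only cathepsin whose groups did not overlap. The difference for cpr-5 was -1.24 with an SE of 0.45 (limma adjusted p = 0.0579), and for asp-3 it was -0.55 (limma adjusted p = 0.135). For cpr-1 it was 0.38 (limma adjusted p = 0.240). The call for cpr-6 was lost without the in-house column library, without the kit column library, without L4 library 5 and without L4 library 6, with adjusted p of 0.0586 to 0.0648.

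Set against each group's mean, library 8 lay nearer to the young adults for 8 of the 10 cathepsins, and nearer to L4 libraries 5 to 7 for cpr-6 and cpl-1. Its distance from the mean of L4 libraries 5 to 7 was -2.04 on the log2 scale for cpr-5 and 1.09 for cpr-1. It lay inside the young adult range for asp-1, asp-2, asp-3, asp-4 and asp-5. For asp-6 and cpr-1 it lay above both groups, and for cpr-5 below both. The share of all CDS nearer to the young adults was not computed, so the count of 8 is not read as particular to cathepsins.

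**Figure D3:**
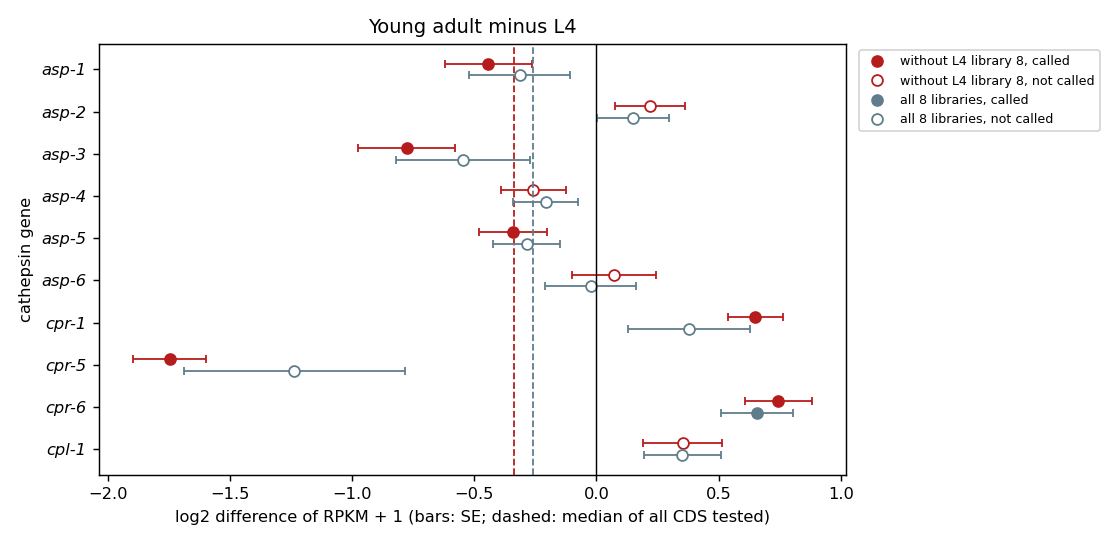
Difference in occupancy between stages (x axis, log2 of RPKM + 1, young adult minus L4) for each cathepsin (y axis), with bars for the SE, filled points for calls at an adjusted p below 0.05 and dashed lines at the median of all CDS tested. Without library 8, cpr-5 lies at -1.75 and cpr-6 at 0.75, and with all 8 libraries cpr-6 is the only filled point; under median centring the sign of asp-4 and asp-5 turns in both sets, and that of asp-1 and asp-6 turns with all 8 libraries.

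Within L4 libraries 5 to 7 the highest library exceeded the lowest by 1.08-fold for cpr-1 to 1.32-fold for asp-2, and cpr-5 spanned 1.10-fold. Library 7 was the lowest of these libraries for 8 of the 10 cathepsins, and it was the lowest for 48.9% of all CDS tested. The exceptions were asp-1 and asp-4, lowest in library 5. Each gel window has 1 library, so these differences have no replicate check.

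The effect of monosome isolation was measured in young adults, with library preparation as a term in the fit. Column libraries gave higher occupancy for 7 cathepsins, asp-1, asp-2, asp-3, asp-4, asp-6, cpr-6 and cpl-1, beside 19.8% of the 11569 CDS tested. None was called lower by limma, none was lower at an unadjusted p under 0.05 and none by voom on recovered reads, beside 19.2% of all CDS called lower. The largest differences were in asp-3 (log2 difference, column minus gradient, 0.38, SE 0.03, limma adjusted p = 0.00355) and cpl-1 (0.35, SE 0.03, limma adjusted p = 0.00355). The other calls ran from 0.13 for cpr-6 (limma adjusted p = 0.0289) to 0.23 for asp-4 (limma adjusted p = 0.00732). The members not called were asp-5 at 0.10, cpr-5 at 0.05 (negative under median centring) and cpr-1 at -0.06. The median SE was 0.03 over the 10 and 0.08 over all CDS tested, so a given difference is called more readily in the 10. With a filter of 10 RPKM, 3918 of 6197 CDS were called for isolation in either direction, and 8 cathepsins were higher.

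The sign was the same within the in-house pair and within the kit pair for all 10 cathepsins. The share of all CDS with the same sign was not computed. These pairs are the libraries of the fit itself, so the count is no separate support for the calls. The libraries of each method did not overlap for asp-2, asp-4, cpr-1 and cpl-1, 4 of 10 beside 47% of all CDS. The median log2 difference was 0.16 over the 10 and 0.02 over all CDS tested. Median centring left asp-3, asp-4, asp-6 and cpl-1 called higher, with all CDS at 1701 higher and 2703 lower in place of 2292 and 2219.

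Kit libraries gave lower occupancy than in-house libraries for 8 cathepsins, asp-1, asp-3, asp-4, asp-5, asp-6, cpr-5, cpr-6 and cpl-1, beside 10% of all CDS called lower. The groups did not overlap for 6 of them (asp-1, asp-3, asp-5, asp-6, cpr-5 and cpr-6), beside 46.3% of all CDS. The median log2 difference, kit minus in-house, was -0.22 over the 10 and 0.10 over all CDS tested. The largest were in asp-3 (-0.53, SE 0.03, limma adjusted p = 0.000853), asp-1 (-0.48, limma adjusted p = 0.00206), asp-6 (-0.43, limma adjusted p = 0.0012) and cpr-5 (-0.39, limma adjusted p = 0.00195). Those of cpl-1, cpr-6, asp-5 and asp-4 lay between -0.25 and -0.16. None was called higher by limma, beside 25.9% of all CDS, with 1 at an unadjusted p under 0.05; voom on recovered reads called asp-2 higher. For asp-2 the difference was 0.12 (limma adjusted p = 0.0872) and for cpr-1 it was 0.03 (limma adjusted p = 0.618, negative under median centring). With a filter of 10 RPKM, 3489 of 6197 CDS were called for preparation in either direction, and 8 cathepsins were lower.

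The sign was the same with gradient and with column isolation for 9 of 10, the exception being cpr-1. Here too the share over all CDS was not computed. The same 8 were called lower under median centring, with all CDS at 1663 higher and 2012 lower, and under quantile normalization, with 1795 and 1875, in place of 2992 and 1160. Each of these fits had 1 residual degree of freedom per CDS and took most of its estimate of spread from the other CDS. With the spread taken from all 8 libraries, none of the 10 was called by limma for isolation or for preparation, and none was at an unadjusted p under 0.05. With L4 libraries 5 to 7 added, none was called by limma, 2 were higher in column libraries at an unadjusted p under 0.05 and 4 were lower in kit libraries.

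**Figure D4:**
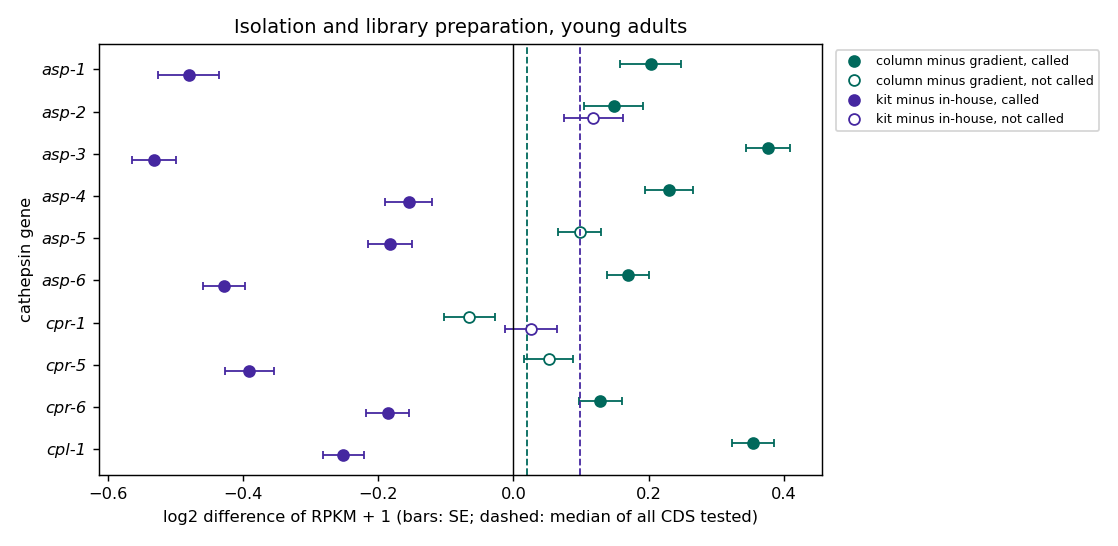
Difference in occupancy in young adults (x axis, log2 of RPKM + 1) for each cathepsin (y axis), for column minus gradient and kit minus in-house, with bars for the SE, filled points for calls and dashed lines at the median of all CDS tested. The green points lie between -0.06 and 0.38 and the purple points between -0.53 and 0.12; the sign for cpr-5 (column minus gradient) and cpr-1 (kit minus in-house) turns under median centring.

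Other proteases of both classes were listed beside the 10. The stage counts of these and the following lists are to be read against 22.7% of all CDS called higher and 46.6% lower without L4 library 8, and 11.1% and 27.6% with all 8 libraries. Of 12 further aspartic proteases in the table, 7 never reached 1 RPKM in any library. Of the 5 tested without L4 library 8, asp-13, asp-14 and asp-17 were higher in young adults and asp-8 and asp-12 were lower. Keeping library 8 left the same calls except for asp-12, which was not called (0.04, limma adjusted p = 0.958). The neighbour of asp-5 and asp-6, asp-12, stood at 51.9 ± 3.39 RPKM in young adults (n = 4) and 83.1 ± 9.72 RPKM in L4 libraries 5 to 7 (n = 3). The most occupied, asp-13, stood at 285 ± 47.1 RPKM and 68.3 ± 3.46 RPKM.

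Of 8 other cysteine cathepsins tested, cpr-9 and cpz-1 were higher in young adults and cpr-3, cpr-4, cpr-8 and cpz-2 were lower, with a median log2 difference of -0.78. When library 8 was kept, cpr-8 was no longer called, the other 5 were, and the median was -0.47. For cpr-4, another cathepsin B-like gene, the difference was -1.54 (SE 0.13, limma adjusted p = 3.08e-06), with 334 ± 37.8 RPKM in young adults (n = 4) and 971 ± 40.3 RPKM in L4 libraries 5 to 7 (n = 3). The cathepsin Z gene cpz-1, known for a part in moulting, differed by 0.42 (limma adjusted p = 0.0287).

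Cystatins bind and block cysteine cathepsins. Of the 2 in the table, cpi-1 was higher in young adults (0.72, SE 0.13, limma adjusted p = 0.00053) and cpi-2 was lower (-0.38, SE 0.15, limma adjusted p = 0.0385). In the fit on all 8 libraries cpi-2 was called (-0.44, limma adjusted p = 0.0444) and cpi-1 was not (0.35, limma adjusted p = 0.404). The 6 calpains tested, cytosolic cysteine proteases that need calcium, had a median difference of 0.10, and the most occupied, clp-1, differed by 0.19 (limma adjusted p = 0.348).

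The proton pump that acidifies lysosomes, the V-ATPase, had 21 subunits tested without L4 library 8, of which 11 were lower in young adults and 2, vha-7 and vha-18, were higher. Its median log2 difference was -0.37, near that of all CDS. With all 8 libraries 3 subunits were lower, vha-9, vha-14 and vha-17, and vha-7 and vha-18 were higher, with a median of -0.30. The pump subunit vha-2 stood at 1331 ± 338 RPKM in young adults (n = 4) and 2012 ± 99.3 RPKM in L4 libraries 5 to 7 (n = 3), and it was not called with all 8 libraries (limma adjusted p = 0.0725). Of 19 other lysosomal hydrolases, 10 were lower in young adults and nuc-1, asm-1, asm-2 and asm-3 were higher, with a median of -0.42. Over all 8 libraries, 8 were lower and nuc-1 was higher, with a median of -0.41. The lysosomal deoxyribonuclease nuc-1 differed by 2.10 (SE 0.20, limma adjusted p = 7.06e-06) and the lipase-like gene lipl-5 by -0.97 (SE 0.16, limma adjusted p = 0.000375). Beside the 10 cathepsins, 9 of 16 hydrolases were higher in column libraries and none was lower, with a median of 0.30. Over all CDS 19.8% were called higher and 19.2% lower, and the median was 0.02. Other lists varied. Of 8 other cysteine cathepsins, cpz-1 was higher and cpr-9 and cpz-2 were lower. Of 5 further aspartic proteases, asp-13, asp-14 and asp-17 were higher. Of 21 V-ATPase subunits, 7 were higher and 7 lower. Of 13 saposin-like genes, spp-17 was higher and spp-1, spp-10 and spp-15 were lower. Of 15 genes of the lysosomal membrane and gut granules, 6 were higher and glo-2 was lower. In kit libraries nuc-1 and gba-4 were higher and no hydrolase was lower, where 25.9% of all CDS were called higher and 10% lower. Of the other cysteine cathepsins, cpr-9, cpz-1 and tag-196 were higher in kit libraries and cpr-4 was lower. Of the further aspartic proteases, asp-13 was higher and asp-8 and asp-12 were lower. Of the V-ATPase subunits, 6 were higher and 7 lower.

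Of 16 genes of the lysosomal membrane and gut granules, 6 were lower in young adults and scav-3, ctns-1 and cln-3.1 were higher, with a median of -0.05. With all 8 libraries lmp-1, ncr-1 and cln-3.3 were lower and scav-3 and ctns-1 were higher, with a median of -0.07. The membrane protein gene lmp-1 differed by -0.59 (limma adjusted p = 0.00148), and ctns-1, related to the cystine transporter of lysosomes, by 2.25 (limma adjusted p = 1.52e-05). Among the food-related hydrolases of the gut, 5 of 10 lysozymes were higher in young adults (lys-4, lys-5, lys-6, lys-7 and ilys-5) and 5 were lower (lys-1, lys-2, lys-3, lys-8 and ilys-4). When library 8 was kept, the same 5 were lower and ilys-5 was higher, of 11 tested. Of 15 saposin-like genes, spp-4, spp-12 and spp-17 were higher and 6 were lower, and with all 8 libraries the same 3 were higher and spp-3, spp-7, spp-10, spp-13 and spp-18 were lower.

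Of 9 regulators of gut and lysosome genes, elt-2, hlh-30, mxl-3, pha-4 and pqm-1 were lower in young adults and raga-1 and let-363 were higher, with a median of -0.69. With all 8 libraries hlh-30, mxl-3 and pha-4 were lower and let-363 was higher, with a median of -0.55. The TFEB relative hlh-30 differed by -1.64 (SE 0.22, limma adjusted p = 8.23e-05), from 69.6 ± 22.1 RPKM in L4 libraries 5 to 7 (n = 3) to 21.3 ± 4.398 RPKM in young adults (n = 4). Its counterpart mxl-3, which represses lysosomal lipase genes, differed by -2.39 (SE 0.19, limma adjusted p = 1.36e-06). Of 16 intestine markers, 10 were lower in young adults and mtl-2 was higher, with a median of -0.57. When library 8 was in the fit, ifb-2, eps-8 and pgp-1 were lower and mtl-2 was higher. Markers of other tissues moved too: 10 of 10 body wall muscle, 8 of 8 tested neuron and 8 of 10 epidermis markers were lower, and 9 of 13 germ line markers were higher. Against these, the epidermal collagen gene col-19 was higher (5.82, limma adjusted p = 1.83e-10) and the germ line gene htp-3 was lower (-0.63, limma adjusted p = 0.000983). With all 8 libraries 7 muscle, 4 neuron (unc-119, snb-1, ric-4 and snt-1) and 7 epidermis markers were lower, and 9 germ line markers and col-19 were higher. No marker was at 0 in all libraries, and rgef-1 among the neuron markers never reached 1 RPKM. The part of these tissue differences in the cathepsin results was not tested.

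**Figure D5:**
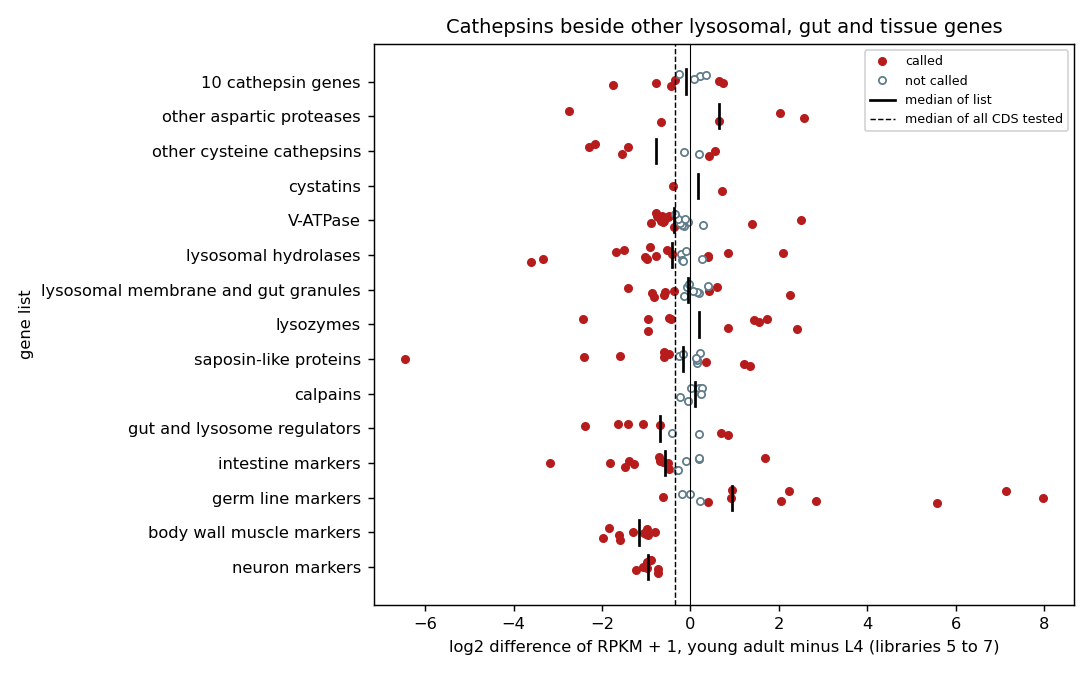
Difference in occupancy between stages without L4 library 8 (x axis, log2 of RPKM + 1, young adult minus L4) for the genes of each list (y axis), 1 point per gene, filled where called, with a bar at the median of the list and a dashed line at the median of all CDS tested. The 10 cathepsins spread from -1.75 to 0.75; the epidermis markers, with a median of -7.89, are not drawn.

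The genes most like each cathepsin other than asp-2 were named by the root mean square distance between log2(RPKM + 1) profiles over the 8 libraries, each centred on its own mean, among 4540 named CDS with a mean of at least 10 RPKM. For cpr-5 the nearest were alg-3, at 0.12, and gsto-1. For asp-1 they were tgt-2, at 0.12, and pmp-1, and for asp-3 they were misc-1, at 0.13, and gly-9. For asp-4 they were sec-11 and obr-2, for asp-5 mtch-1 and nduf-9, and for asp-6 epg-6 and him-17. For cpr-1 they were bath-2 and dcap-1, for cpr-6 ran-2 and eef-2, and for cpl-1 tsr-1 and elpc-2. None of these genes belongs to the lists of proteases or lysosomal genes above. All 15 lists, tissue markers included, hold 190 matched entries beside the 4540 candidates, so a lack of matches carries little weight.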

How the data were processed

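Ribosome-protected fragments were sequenced from 8 libraries of N2 worms. The authors deposited 1 table of RPKM values per CDS, 8 columns. Per the submitters' processing notes, STAR 2.4, Bowtie2 2.2.4 and bcl2fastq 1.8.4 were used, in roles not stated there. The genome build, the treatment of reads with several matches and the definition of a CDS are not given in the sources used here. Values were whole multiples of 1 read for all 19649 CDS with a value (tolerance 0.0001), and 856 CDS were 0 throughout, so reads were recovered for totals, intervals and a voom alternative.

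Two-sided tests used limma 3.58.1 in R 4.3.3 (lmFit and trended eBayes) on log2(RPKM + 1), over CDS with at least 1 RPKM in at least 2 libraries, with Benjamini-Hochberg adjustment and a threshold of 0.05; a pseudocount of 1 understates the change of low genes. Isolation and preparation were fitted together in the 4 young adult libraries, and stage in all 8 and without L4 library 8. Alternatives changed the pseudocount, filter, scaling, trend, libraries and model. Scripts were tested on simulated data.

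The members and lists were chosen with earlier results of these data known. Lists are described by counts and medians. The text names all 10 members, up to 4 genes per list with the highest mean RPKM, every gene in a count of 5 or fewer, and the 2 nearest profiles, except those of asp-2, which are not reported here. RefSeq's WBcel235 gene table named 20051 of 20505 CDS; 2 listed genes, asp-10 and clp-5, were not matched. Its gene positions served only to see which genes are neighbours, and none is printed. Python 3.11.15 drew the figures.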

Additional observations from a re-analysis of the deposited data

Results flagged for a closer look

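In each stage group of 4 libraries, the highest and lowest library of each cathepsin were checked for a gap to the nearest other library that is large against the group's range, which makes 20 checks. Chance alone gives such a gap in about 1 in 20 groups of 4 replicates from 1 population. These groups are not of that kind, since their libraries differ by method or gel window. Both gaps that passed were in L4 library 8, the library that stood apart over all CDS, so they add no separate result. For cpr-1 it gave 454 RPKM, the highest of the L4 libraries, with a gap of 0.930 of the range. For cpr-5 it gave 309 RPKM, the lowest, with a gap of 0.878 of the range.

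The difference of kit and in-house libraries had opposite signs for cpr-1 in the 2 isolations. It was -0.015 on the log2 scale with gradient isolation and 0.068 with column isolation. The difference between the 2 was not tested, with 1 library in each cell.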

How the results depend on the processing

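Counts of calls moved as follows. For isolation, cathepsins called higher came to 4 with median centring, 2 with no abundance trend and 0 with all 8 libraries or with L4 libraries 5 to 7 in the fit, where 0 CDS were called in either (232 and 2104 at an unadjusted p under 0.05 by limma). For preparation, 2626 CDS were called with no trend, 0 with all 8 and 4 with L4 libraries 5 to 7; cathepsins called lower came to 4, 0 and 0, and voom called 1 higher. Leaving out 1 library and taking the spread from L4 libraries 5 to 7 gave 0 to 0 for every count of isolation or preparation, with 419 to 618 CDS at an unadjusted p under 0.05 by limma. For stage with all 8, 3308 CDS were called with a filter of 10 RPKM and 609 with isolation and preparation in the model; cathepsins called higher came to 2 with median centring and 0 in that model, and voom called 1 lower. Leaving out 1 library gave 381 to 9352 CDS, 0 to 2 cathepsins higher and 0 to 4 lower, the most without L4 library 8. For stage without library 8, 5413 CDS were called with a filter of 10 RPKM. Cathepsins lower came to 2 with no filter and 1 with median centring, and higher to 4 with median centring. With isolation and preparation in that model, 9794 CDS were called, with 3 cathepsins higher and 5 lower, and voom gave 3 higher and 4 lower. Leaving out 1 library gave 8298 to 9192 CDS, 2 to 3 cathepsins higher and 2 to 4 lower. Signs turned under median centring for cpr-5 in isolation (-0.0036) and cpr-1 in preparation (-0.0893), for stage with all 8 for asp-1 (0.0175), asp-4 (0.12), asp-5 (0.0468) and asp-6 (0.31; 0.17 by quantile), and without library 8 for asp-4 (0.14) and asp-5 (0.0599). Leaving out 1 library turned cpr-1 in preparation (-0.015 to 0.0681), asp-6 with all 8 (-0.12 to 0.0762) and asp-6 without library 8 (-0.0278 to 0.17). The cause was not tested beyond the fewer CDS or libraries that each alternative leaves. No paired analysis of the stages was possible because no label pairs a young adult library with an L4 library. In young adults each method was already fitted with the other as a term. Depth limits little here, since each member had at least 1048 reads.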
